A study of Homo sapiens with 12 samples.

Results

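The genes described here are the 145 well-expressed members of the ZNF series of human zinc finger genes. They are the rows of the expression table with a symbol made of ZNF, a number and at most 1 letter, and with a mean of at least 10 TPM, a level scaled to gene length and library total, over all 12 libraries. The table held 23686 genes, of which 521 had such a symbol, and 376 of these lay under the threshold. Just inside it stood ZNF174 with a mean of 10.2 TPM, ZNF703 with 10.1 and ZNF12 with 10.0, and just outside it stood ZNF57 with 9.97 and ZNF346 and ZNF841 with 9.95 each. The members were thus selected on their mean TPM, and the family was chosen by its upward shift with hydrogen peroxide (H2O2) in MDA-MB-231 cells, so its values in that comparison are given as a description from which nothing is read.

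Most ZNF genes encode proteins that bind DNA through a row of C2H2 zinc fingers, each a small fold in which 2 cysteines and 2 histidines hold a zinc ion. Many also carry a KRAB domain at the amino end, which recruits the scaffold protein TRIM28 (KAP1), and through it the histone methyltransferase SETDB1 and heterochromatin proteins, to silence transposable elements and some genes. KRAB zinc finger genes arose largely by duplication, and many stand in clusters on chromosome 19. The symbol is also used for proteins with few or no C2H2 fingers and with other roles, including factors of ribosome maturation and of mitosis.

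RNA sequencing was done in MDA-MB-231, a line from a breast cancer, and in HCT116, a line from a colon cancer. Each line was sampled under 3 treatments, which were control IgG, IgG with 100 µM H2O2 for 8 h, and the antibody anti-Hsp60N with 100 µM H2O2 for 8 h. Each of the 6 groups had 2 libraries, no group had the antibody without H2O2, and the lines were grown in different media, so line and medium cannot be told apart. Whether the 2 libraries of a group stem from separate cultures is not given in the labels. The p-values below therefore reflect only how far these libraries differ, and that spread may be technical.

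The values were TPM, which keep no read depth. Libraries of 1 group correlated at 0.994 to 0.996 across genes. The labelled cell types were checked against 8 epithelial markers, whose summed level was 4717 to 4948 TPM in HCT116 and 1472 to 1639 in MDA-MB-231, and against 7 mesenchymal markers, at 43.4 to 60.6 TPM and 2825 to 3260. In MDA-MB-231, 3 of the 8 epithelial and 2 of the 7 mesenchymal markers were under 1 TPM in all 6 libraries. In HCT116 these counts were 0 and 3. Leukocyte, fibroblast and endothelial markers each summed to at most 10.3 TPM in any library. In a bulk sample, fewer cells of a type and less RNA per cell cannot be told apart.

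Together the 145 genes held 0.303% to 0.329% of the TPM in MDA-MB-231 and 0.346% to 0.384% in HCT116. The most abundant was ZNF207, the kinetochore protein BuGZ, with a mean of 177 TPM. It was followed by ZNF259, now named ZPR1, with 118 TPM, by ZNF146, a protein made almost wholly of fingers, with 105 TPM, and by ZNF593, a relative of a yeast factor of ribosome maturation, with 102 TPM. ZNF664 (94.4 TPM), ZNF511 (66.0), ZNF622 (57.3), ZNF330 (56.2), ZNF706 (52.8) and ZNF384 (44.3) followed. A coding sequence of the GENCODE annotation, release 29, was found for 144 of the 145, and ZNF271 was left unmatched. The translated proteins held a median of 8 C2H2 fingers, with a range of 0 to 31. A KRAB motif, a fixed pattern of conserved residues from the core of the domain, stood in 46 of the 144 and not in 98. The pattern is strict and misses diverged domains, such as that of the known KRAB protein ZNF224, which a wider form of the pattern found. The wider form may miss others, so members without the motif in either form can still carry the domain. In the GRCh38.p14 annotation 49 members stood on chromosome 19, and 68 had another ZNF gene as a direct neighbour.

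More of these genes rose than fell with H2O2 in HCT116. Neither group of this comparison stands in the one by which the family was picked. The spread behind the calls was estimated over all 12 libraries, however, those of that comparison included. Of 145 members, 46 rose and 13 fell (limma, Benjamini-Hochberg adjusted p under 0.05 over 13956 genes). In that fit of all 12 libraries, 2156 or 15.4% of all genes tested rose and 2436 or 17.5% fell. With HCT116 fitted alone, 33 members rose and 8 fell, and the share over all genes in that fit is not given here. The median log2 change of TPM + 1 was 0.135 over the members and -0.010 over all genes. Of the other 310 ZNF genes tested, which have lower levels, 60 rose and 5 fell, with a median of 0.055, and 27 rose without the second H2O2 library of HCT116. Among the 51 members with a mean of at least 20 TPM, 13 rose and 6 fell, with a median of 0.062. The count of members that rose was 28 without that library. The count that fell was 5 and 7 without the first or the second H2O2 library, and 6 and 3 without the first or the second IgG library.

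Among the 46 members with the KRAB motif 24 rose and 0 fell with H2O2 in HCT116, with a median log2 change of 0.217, and 32 of the 46 had an unadjusted p under 0.05. Without the second H2O2 library the count that rose was 14. Among the 98 members without the motif 22 rose and 13 fell, with a median of 0.056, and without that library 14 rose. With the wider form of the pattern, chosen after the data were seen, 26 of 50 rose and 0 fell, against 20 and 13 of 94 without it. In shares, 52.2% of the 46 with the strict motif rose, and of the 98 without it 22.4% rose and 13.3% fell. Over all genes tested 15.4% rose and 17.5% fell. The plot of changes by KRAB motif shows both groups of genes.

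**Figure D1:**
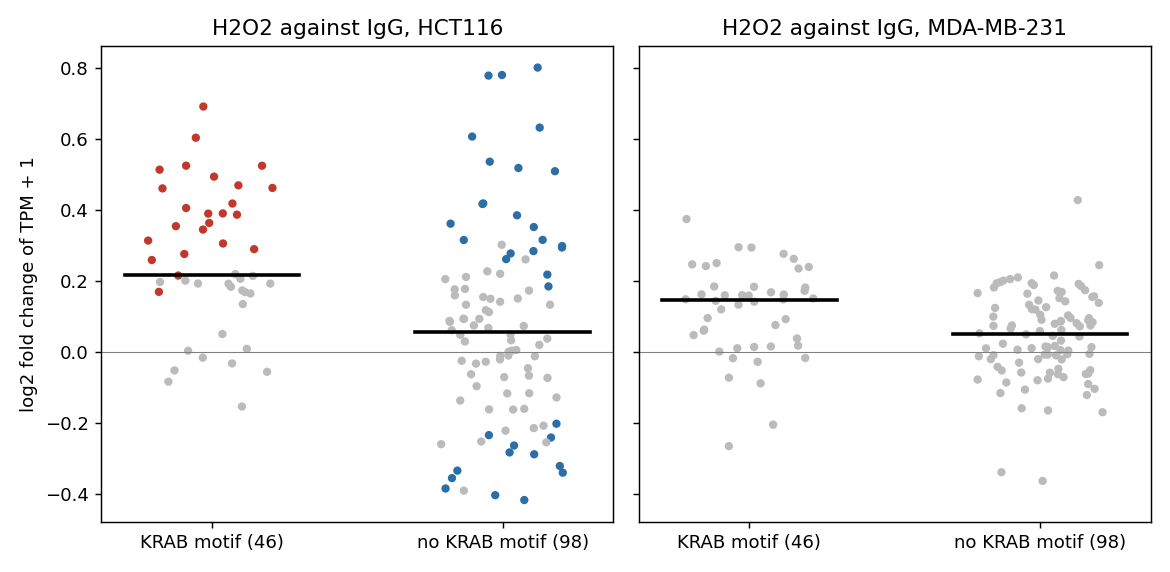
Each point is 1 ZNF gene, the vertical axis is its log2 fold change of TPM + 1 under H2O2 against IgG, coloured points in the HCT116 panel passed an adjusted p under 0.05, and black bars are medians. In HCT116 24 of 46 genes with the motif are coloured, all above 0, while the 98 without it have coloured points on both sides; the MDA-MB-231 panel is a description and its points are all drawn in grey.

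ZNF621 had the largest rise on the scale of log2(TPM + 1), which understates the fold of genes with lower TPM, such as ZNF697 and ZNF266. Its level in HCT116 was 12.7 and 11.7 TPM under IgG and 21.7 and 22.3 TPM under H2O2, a log2 change of 0.80 (SE 0.07, limma adjusted p = 2.74e-05). The H2O2 libraries lay above the IgG libraries. Genes named for the largest changes within a line were picked among called members without overlap. The absence of overlap in them follows from that rule and adds nothing to the calls. ZNF697, a protein with 11 fingers, went from 4.83 and 4.57 TPM to 8.43 and 9.12 TPM (log2 0.78, SE 0.07, limma adjusted p = 4.13e-05). ZNF266, with 12 fingers, went from 5.77 and 5.56 TPM to 9.82 and 11.1 TPM (log2 0.78, SE 0.09, limma adjusted p = 0.000103). On this scale both genes were nearly as far apart between the treatments as ZNF621.

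Of the genes with the KRAB motif, ZNF274 had the largest rise on the same scale. It encodes a protein that binds within other zinc finger genes and brings TRIM28 and SETDB1 to them. Its level was 7.37 and 8.19 TPM under IgG and 14.0 and 12.3 TPM under H2O2, with no overlap (log2 0.69, SE 0.08, limma adjusted p = 0.000183). ZNF160, with 20 fingers, went from 12.6 and 10.1 TPM to 17.6 and 17.7 TPM (log2 0.60, SE 0.09, limma adjusted p = 0.000572). ZNF28 (log2 0.52) and ZNF558 (log2 0.52), which also carry the motif, rose as well. All 4 of these are on chromosome 19, and the H2O2 libraries of each stood above its IgG libraries, as the rule of naming required. Other rises were in genes without the strict motif. ZNF224, a KRAB protein known as a repressor of the aldolase A gene, went from 7.50 and 7.77 TPM to 12.4 and 11.9 TPM (log2 0.61, SE 0.06, limma adjusted p = 8.72e-05). ZNF121, with 9 fingers, started higher, at 36.7 and 31.4 TPM, and reached 51.9 and 54.5 TPM (log2 0.63, SE 0.08, limma adjusted p = 0.000197). ZNF655, a partner of the signalling protein VAV1, went from 29.7 and 28.9 TPM to 42.9 and 42.9 TPM (log2 0.54, SE 0.08, limma adjusted p = 0.000590). In these 3 genes as well the lowest H2O2 library stood above the highest IgG library, by the same rule. Paralogous KRAB genes share long stretches of sequence, so how reads were divided among them by the authors' counting is uncertain.

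**Figure D2:**
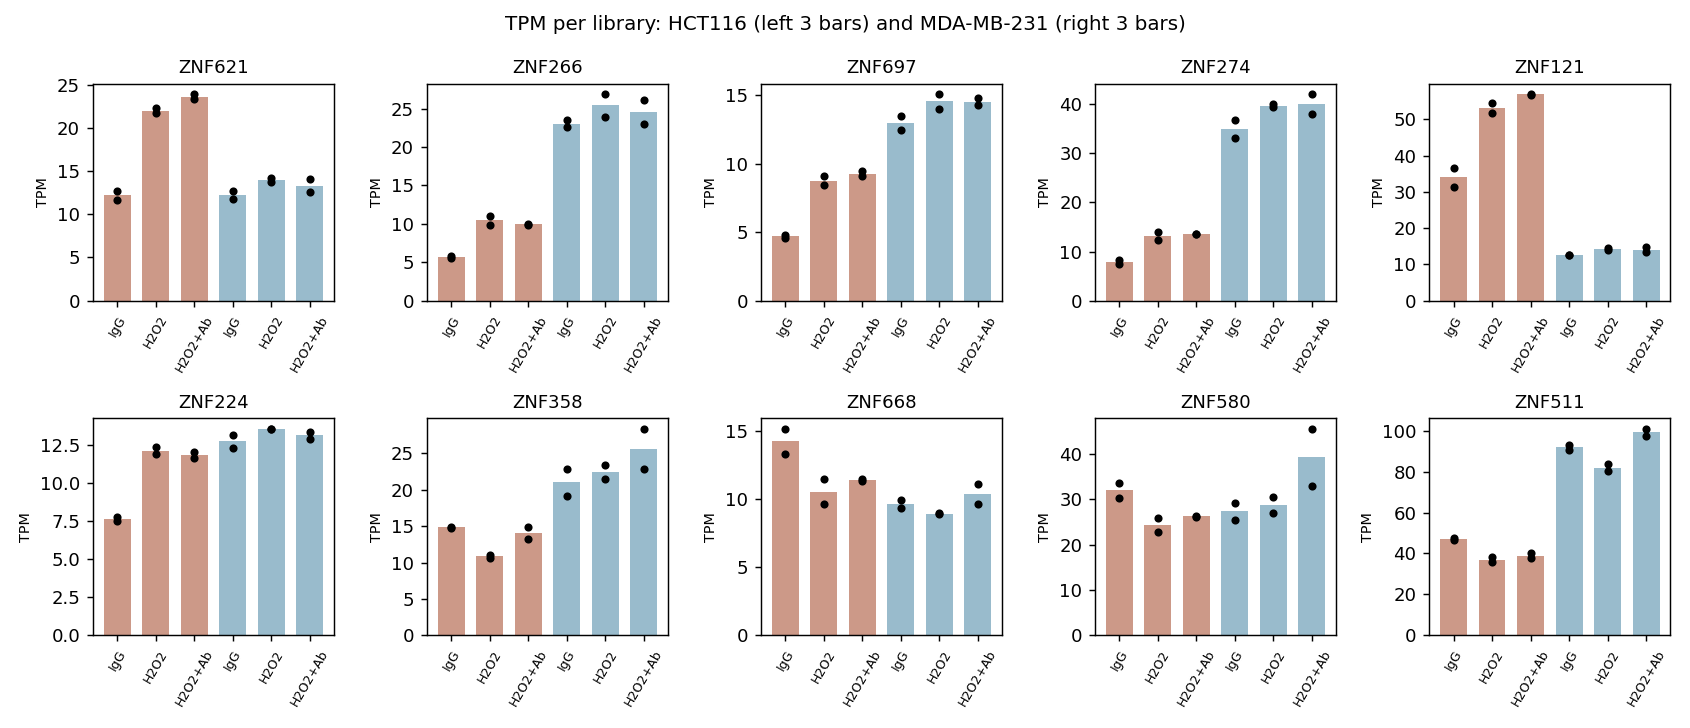
Bars are group means of TPM and points are single libraries, for 6 ZNF genes that rose and 4 that fell with H2O2 in HCT116. In HCT116 the H2O2 libraries lie above IgG for ZNF621 (21.7 and 22.3 against 12.7 and 11.7 TPM) and below IgG for ZNF358 (10.7 and 11.1 against 14.9 and 14.7 TPM).

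All 13 members that fell lacked the KRAB motif. ZNF358, with 9 fingers and no KRAB motif, went from 14.9 and 14.7 TPM under IgG to 10.7 and 11.1 TPM under H2O2 (log2 -0.42, SE 0.11, limma adjusted p = 0.0137). ZNF668, with 16 fingers, went from 13.3 and 15.2 TPM to 11.5 and 9.61 TPM (log2 -0.40, SE 0.10, limma adjusted p = 0.00979). ZNF511, with 3 fingers, went from 47.4 and 46.4 TPM to 35.7 and 38.4 TPM (log2 -0.33, SE 0.05, limma adjusted p = 0.0012). The treatments did not overlap in any of these, which the rule of naming required. ZNF580 (log2 -0.38), ZNF576 (-0.35), ZNF787 (-0.34), ZNF318 (-0.32), ZNF385A (-0.29), ZNF503 (-0.28) and ZNF367 (-0.26) fell as well. ZNF385A encodes a cofactor of p53, and ZNF503 a repressor of transcription. ZNF207, the mitotic factor, went from 226 and 250 TPM to 200 and 203 TPM, without overlap (log2 -0.24, SE 0.05, limma adjusted p = 0.00518). Of the 10 largest falls, ZNF511 alone kept its call under every alternative and with every library left out in turn, as did all 10 of the largest rises. The calls of ZNF580 and ZNF787 held under 7 of these 20 settings.

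Promoters of 3 genes are printed to show what stands before the start of a gene that rose with the KRAB motif, of ZNF266, another of the largest rises, and of the gene with the largest fall. Each is the 250 bases before the start in RefSeq's annotation of GRCh38.p14, read 5′ to 3′ on the gene's strand. Capitals mark a match to a searched motif on either strand, an ETS site in the first and a cAMP response element (CRE) in the second, and the third had none. ZNF274 is at chr19:58182811-58183060 on the plus strand, ZNF266 at chr19:9435574-9435823 on the minus strand and ZNF358 at chr19:7515853-7516102 on the plus strand.
ZNF274: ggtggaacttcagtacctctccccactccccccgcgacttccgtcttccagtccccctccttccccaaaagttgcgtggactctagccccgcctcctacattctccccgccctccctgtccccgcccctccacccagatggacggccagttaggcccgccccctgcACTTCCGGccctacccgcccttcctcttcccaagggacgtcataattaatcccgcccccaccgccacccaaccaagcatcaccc
ZNF266: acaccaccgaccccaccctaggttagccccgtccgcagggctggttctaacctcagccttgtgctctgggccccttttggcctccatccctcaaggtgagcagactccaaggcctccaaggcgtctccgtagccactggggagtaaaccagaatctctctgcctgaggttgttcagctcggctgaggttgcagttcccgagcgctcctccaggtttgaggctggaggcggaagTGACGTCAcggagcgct
ZNF358: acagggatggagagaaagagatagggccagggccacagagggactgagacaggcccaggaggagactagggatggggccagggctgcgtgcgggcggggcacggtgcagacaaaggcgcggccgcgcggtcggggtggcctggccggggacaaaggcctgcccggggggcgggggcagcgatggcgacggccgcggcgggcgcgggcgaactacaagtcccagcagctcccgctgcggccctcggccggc
The first 2 hold 14 and 12 CpG dinucleotides, and the third holds 26.

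Promoters of 121 members were matched by symbol in RefSeq, over windows from 250 bases before to 50 after the start. The ETS site CCGGAAGT, on either strand, stood in 20.7% of the 121 and in 4.44% of all 27305 promoters. It stood in 11 of the 37 matched genes that rose with H2O2 in HCT116, in 2 of the 12 that fell and in 12 of the 72 others. The CRE, TGACGTCA, stood in 7.44% of members and 1.98% of all promoters. The binding site of NRF1 stood in 11.6% and 6.28%, that of NRF2, TGACNNNGC, in 16.5% and 13.6%, and that of ATF4, TGATGNAAT, in 0.826% and 1.02%. The windows of the members held a median of 25 CpG dinucleotides and 64.3% GC, against 14 and 58.3% over all promoters. The set of all promoters was not limited to expressed genes. The ETS, CRE and NRF1 letters each hold a CpG, and whether base content accounts for these shares was not tested. A match is a description of the letters in the window and not of binding.

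Members were also counted by their number of fingers, in classes set after the data were seen. With H2O2 in HCT116, 15.4% of all genes tested rose and 17.5% fell. Of 55 members with 10 or more fingers 27 rose and 2 fell in that comparison. Of 59 with 4 to 9 fingers 18 rose and 3 fell. Of 30 with 0 to 3 fingers 1 rose and 8 fell. The member that rose among these 30 was ZNF185, a protein of the actin cytoskeleton that carries a LIM domain, at log2 0.29. The proteins of ribosome handling were in the last class. ZNF593 had a log2 change of -0.16, ZNF622, another factor of ribosome maturation, -0.05 and ZNF598, which senses collided ribosomes, -0.01, and none of these passed the test.

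On chromosome 19, 25 of 49 members (51.0%) rose and 5 (10.2%) fell with H2O2 in HCT116. Elsewhere 21 of 95 (22.1%) rose and 8 (8.42%) fell, against 15.4% and 17.5% of all genes tested. Of the 26 chromosome 19 genes with the KRAB motif 18 rose, and of the 20 with the motif on other chromosomes 6 rose, with 0 falls in either. Members beside another ZNF gene rose in 29 of 68 cases (42.6%), and the others in 17 of 76 (22.4%). These splits overlap with the motif and with one another.

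**Figure D3:**
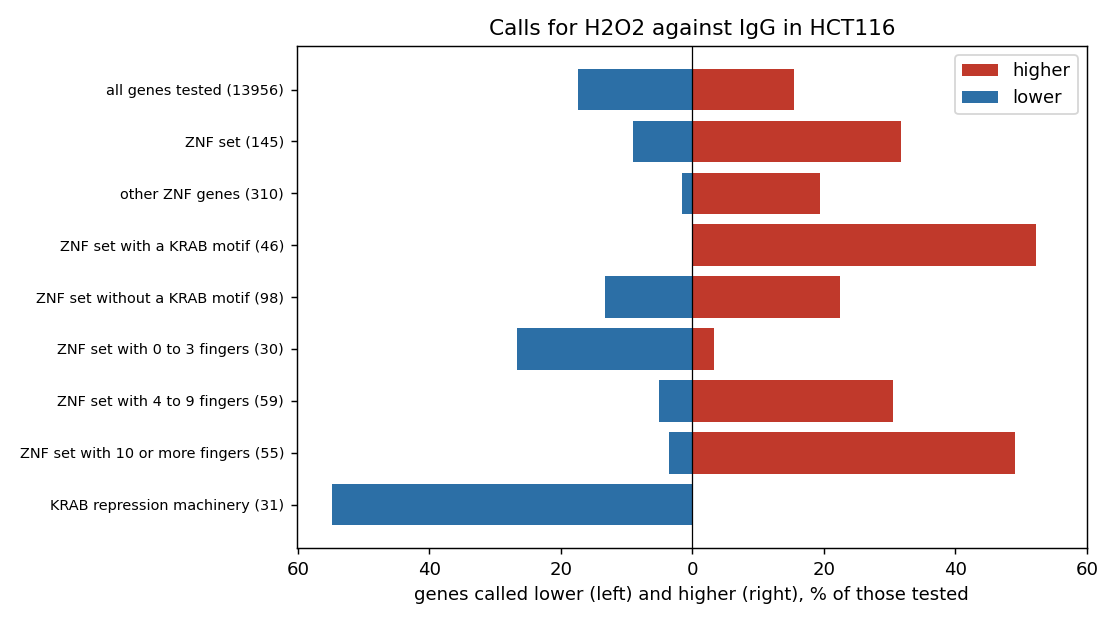
Bars give the share of genes that passed an adjusted p under 0.05 under H2O2 against IgG in HCT116, higher to the right and lower to the left, in % of the genes tested, whose number stands in brackets. Genes with the KRAB motif reach 24 of 46 higher and 0 lower, and the repression machinery 0 higher and 17 of 31 lower.

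GC content moved with these classes. The members that rose had a median transcript GC of 42.9%, those that fell 61.3%, and all genes tested 49.3%. With members split by GC into 3 classes of 48, 22 rose and 1 fell in the lowest class, 21 rose and 3 fell in the middle class, and 3 rose and 9 fell in the highest. Over all genes tested, of any GC, 15.4% rose and 17.5% fell. Within the lowest class 14 of 22 genes with the KRAB motif and 8 of 26 without it rose, and within the middle class 9 of 19 and 12 of 29. Over all genes tested, the median change was 0.01 among the 1345 of lowest GC and -0.08 among the 1345 of highest GC. When the median deviation of genes of like GC was taken off in each library, a setting chosen after the data were seen, 59 members rose, among them all 46 above, and 11 fell, among them 10 of the 13.

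**Figure D4:**
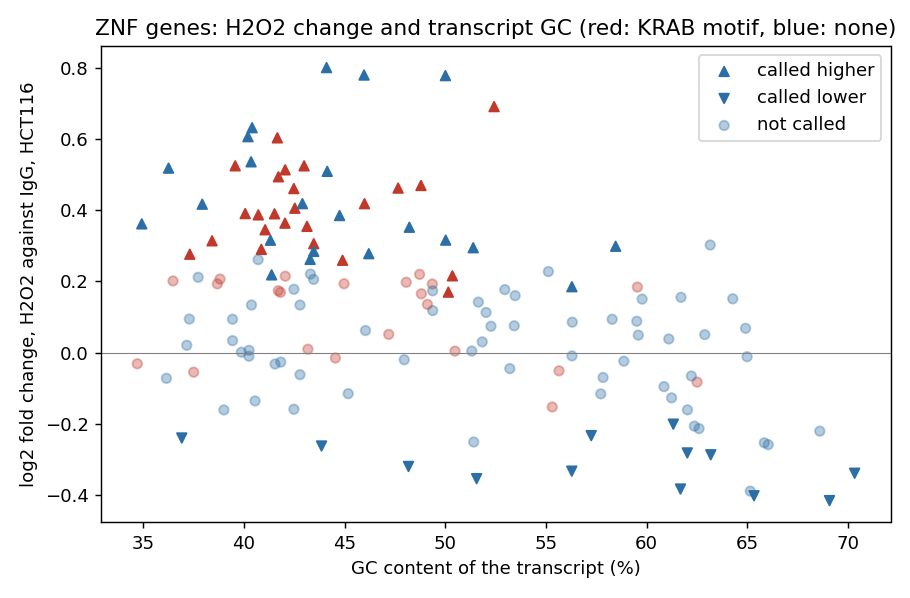
The horizontal axis is the GC content of a gene's transcript in %, and the vertical axis is the log2 fold change under H2O2 in HCT116; upward triangles rose, downward triangles fell, pale circles did not pass the test, and red marks the KRAB motif. Most upward triangles stand below 50% GC, where the genes that rose have a median of 42.9%.

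The partners through which KRAB proteins silence DNA went the other way. Of 31 genes of this machinery 0 rose and 17 fell with H2O2 in HCT116, with a median log2 change of -0.167, while 17.5% of all genes fell. TRIM28 itself went from 703 and 819 TPM under IgG to 633 and 602 TPM under H2O2, with no overlap (log2 -0.30, SE 0.06, limma adjusted p = 0.00413). EHMT2, the histone methyltransferase G9a, fell from 69.5 and 76.4 TPM to 51.5 and 48.1 TPM (log2 -0.54, SE 0.07, limma adjusted p = 0.000318). ATF7IP, the partner of SETDB1, fell from 23.3 and 23.9 TPM to 15.1 and 17.0 TPM (log2 -0.53, SE 0.09, limma adjusted p = 0.00128). RBBP7, a histone-binding subunit of deacetylase complexes, fell as well (log2 -0.28), and so did CBX1, a heterochromatin protein (log2 -0.31). SETDB1 did not pass the test, at log2 0.15. CHD4, the helicase of the NuRD complex, fell by 0.25 on the log2 scale, while ZNF410, a member known as an activator of the CHD4 gene, rose by 0.38. The count of 17 was 8 and 11 without the first or second H2O2 library, and 9 without the second IgG library.

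The antibody group in HCT116 shares its IgG libraries with the comparison above, so the values are set side by side and not taken as a second observation. Under anti-Hsp60N with H2O2 against IgG, 57 members were higher and 8 lower, against 16.8% and 17.5% of all genes, with a median log2 change of 0.135 over the members and -0.001 over all genes. Of the 46 with the KRAB motif 28 were higher and 0 lower. ZNF621 stood at 23.3 and 23.9 TPM (log2 0.90), ZNF697 at 9.45 and 9.11 TPM (0.85), ZNF160 at 19.9 and 20.4 TPM (0.78) and ZNF770, a protein with 10 fingers, was 0.63 higher on the log2 scale. ZNF217, an oncogene of breast cancer that did not pass under H2O2 with IgG (log2 0.21), was higher by 0.31. ZNF121, ZNF274, ZNF266, ZNF224, ZNF655 and ZNF761 were higher by 0.56 to 0.73. All the genes named here as higher stood above their IgG libraries without overlap, which the rule of naming required for all but ZNF217. ZNF576 went down to 6.92 and 7.37 TPM (log2 -0.49). The others that were lower were ZNF174, ZNF668, ZNF503, ZNF511, ZNF629, ZNF207 and ZNF428, with log2 changes from -0.32 to -0.22. With quantile normalization 55 were higher and 17 lower. The count of 28 was 18 without the first antibody library of HCT116. The count of 8 was 3 without that library or without the second IgG library, 5 without the first H2O2 library of MDA-MB-231, and 13 without either antibody library of MDA-MB-231. Of the machinery 1 gene, SMARCAD1, was higher and 16 were lower, with 9 lower without the second IgG library and 8 without either antibody library. TRIM28 was at 614 and 602 TPM (log2 -0.32, limma adjusted p = 0.00268).

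The antibody was also compared with IgG at the same H2O2 exposure. In HCT116 limma called 0 of the 145 members, with 6 at an unadjusted p under 0.05, and 3 genes or 0.0215% in all. The median log2 difference was 0.030 over the members and 0.009 over all genes. In MDA-MB-231 it called 0 members, with 14 at an unadjusted p under 0.05, and 2 genes or 0.0143% in all, and one of its groups also stands in the comparison that picked the family. The count of members stayed 0 in both lines under every alternative and with every library left out. ZNF358 was the member with the largest fall under H2O2. Its 13.2 and 14.8 TPM under the antibody in HCT116 lay above its 10.7 and 11.1 TPM under H2O2 with IgG. They reached into the 14.9 and 14.7 TPM of the control. The gene was picked by those low H2O2 libraries, which are also the baseline here. Its difference did not pass the test, and nothing is read from it. TRIM28 differed by -0.02 in HCT116 and by 0.05 in MDA-MB-231 on the log2 scale and did not pass. The difference between lines of the antibody change passed for 0 members, with 15 at an unadjusted p under 0.05, and for 4 genes or 0.0287% in all.

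In MDA-MB-231 H2O2 against IgG is the comparison that picked the family, and the following is a description. Over all genes 1.3% rose and 1.36% fell, and 0 members are among them, a count from which nothing is read. The median log2 change was 0.075 over the members, 0.146 over those with the KRAB motif and 0.027 over all genes. ZNF28 stood at 6.74 and 8.16 TPM under IgG and 9.47 and 9.18 under H2O2, and ZNF558 at 10.7 and 10.2 and then 12.4 and 13.7. ZNF655, which rose in HCT116, stood at 52.2 and 47.7 TPM under IgG and 48.9 and 45.6 under H2O2, with overlap. The machinery had 0 genes called, with 2 at an unadjusted p under 0.05 and a median of 0.020, and TRIM28 stood at log2 0.01. For anti-Hsp60N with H2O2 against IgG, which shares the IgG libraries, 2 members were higher and 0 lower, against 1.5% and 1.9% of all genes. These were ZNF672, at 17.1 and 18.3 TPM under IgG and 21.9 and 23.0 under the antibody (log2 0.33, SE 0.07, limma adjusted p = 0.0348), and ZNF83, which carries the KRAB motif, at 14.1 and 14.7 and then 18.4 and 17.5 TPM (log2 0.30, SE 0.07, limma adjusted p = 0.0436). Neither passed when any library of MDA-MB-231 or either antibody library of HCT116 was left out, when MDA-MB-231 was fitted alone, or without the filter on low values.

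The change under H2O2 differed between the lines for 20 members, 15 with a higher value in HCT116 and 5 with a lower one, against 7.65% and 9.72% of all genes. One side of this difference is the comparison that picked the family, so nothing is read from the counts. With median-of-ratios scaling the counts were 18 and 2.

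The levels in the 2 lines are given as a description. The threshold on the mean over both lines keeps a gene that is low in one line only if it is high in the other, which favours differences between the lines, and 12 members had a mean under 10 TPM in HCT116 and 27 in MDA-MB-231. The IgG libraries of MDA-MB-231 also stand in the comparison that picked the family. Under IgG 74 were higher in HCT116 and 38 lower, against 45.5% and 37.3% of all genes. The median log2 difference was 0.216 over the members and 0.108 over all genes. With median-of-ratios scaling 63 were higher and 48 lower, and the medians were 0.113 and 0.012. Under the antibody with H2O2, neither group stands in the comparison that picked the family. The threshold on the mean is the same there, and the spread was again estimated over all libraries. In that comparison 82 were higher and 40 lower, against 45.5% and 37.9% of all genes. Nothing is read from these counts.

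ZNF503 and ZNF385A had the largest differences towards HCT116. ZNF503 was at 35.8 and 34.4 TPM in HCT116 and 3.06 and 3.65 TPM in MDA-MB-231 under IgG (log2 3.05). ZNF385A was at 75.1 and 81.1 TPM against 9.34 and 9.61 TPM (log2 2.92). ZNF518A (log2 1.87), ZNF48 (1.51), ZNF579 (1.41), ZNF629 (1.36), ZNF121 (1.36) and ZNF384 (1.27) were higher in HCT116 as well. No C2H2 finger pattern was found in ZNF503, and 3 were found in ZNF385A. At the other end ZNF114, with the KRAB motif, was at 6.88 and 5.31 TPM in HCT116 and 45.1 and 50.0 TPM in MDA-MB-231 (log2 -2.78). ZNF22 was at 15.2 and 13.4 TPM against 65.0 and 64.0 TPM (log2 -2.10). The lines did not overlap for any of these. ZNF503, ZNF385A, ZNF518A, ZNF48, ZNF579 and ZNF629 passed the threshold on the mean only through HCT116, and ZNF114, ZNF266, ZNF703 and ZNF211 only through MDA-MB-231. ZNF32 (log2 -1.84), ZNF703, an oncogene of luminal breast cancer (-1.73), ZNF211 (-1.46) and ZNF185 (-1.31) were also lower in HCT116.

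ZNF274 and ZNF266, which are 2 of the 4 largest rises with H2O2 in HCT116, were among the members with the lowest level there relative to MDA-MB-231. The same HCT116 IgG libraries enter both comparisons, so a low value in them moves a gene towards both extremes. ZNF266 also passed the threshold on the mean only through MDA-MB-231, and nothing is read from the 2 genes being in both lists. ZNF274 was at 7.37 and 8.19 TPM in HCT116 and 36.7 and 33.0 TPM in MDA-MB-231 under IgG (log2 -2.03). ZNF266 was at 5.77 and 5.56 TPM against 23.5 and 22.6 TPM (log2 -1.85). Under H2O2 their HCT116 libraries, at most 14.0 and 11.1 TPM, stayed below every MDA-MB-231 library. ZNF121 had the opposite order, with 36.7 and 31.4 TPM in HCT116 and 12.7 and 12.5 TPM in MDA-MB-231.

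**Figure D5:**
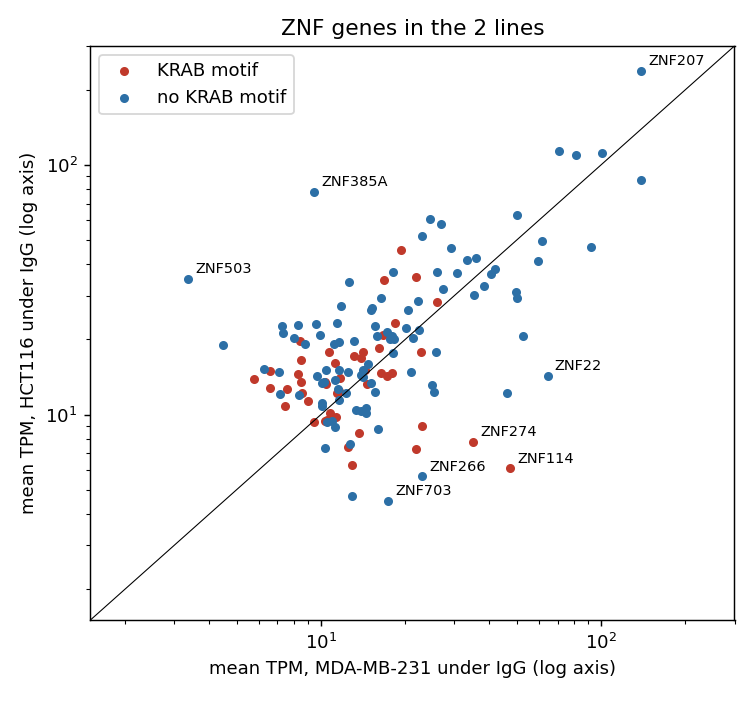
Each point is 1 ZNF gene, with its mean TPM under IgG in MDA-MB-231 on the horizontal and in HCT116 on the vertical log axis, and the line marks equal levels. ZNF503 and ZNF385A lie far above the line (log2 3.05 and 2.92) and ZNF114, ZNF22 and ZNF274 far below it (log2 -2.78, -2.10 and -2.03).

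Most other members of known role did not pass the test for H2O2 in HCT116. ZNF143, an activator of small nuclear RNA and many other genes, had a log2 change of -0.16, ZNF281 -0.03, ZNF24 0.02, ZNF638 0.03, ZNF326 -0.07 and ZNF330, a nucleolar protein, -0.03, and none of these passed the test. ZNF592 (log2 0.03) and ZNF687 (0.09), which bind each other, did not pass either. ZNF146 rose by 0.22 and ZNF410 by 0.38, and ZNF267, with the KRAB motif, stood at 0.20 without passing. In the same comparison 15.4% of all genes rose and 17.5% fell. Related families with other symbols gave 4 higher and 2 lower of 15 ZSCAN genes and 1 and 1 of 7 ZKSCAN genes. The counts were 10 and 1 of 39 ZBTB genes and 3 and 0 of 16 ZFP genes.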

How the data were processed

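Expression came from RNA sequencing of 12 libraries. The authors deposited TPM per gene symbol in 1 table, and per the submitters' processing notes bcl2fastq 2.20, STAR, RSEM and the build hg19 were used; the order of these tools, the annotation and the strand setting were not given in the sources used here. Read depth is unknown, so no counting interval is given. All columns matched a sample. Changes are on the log2(TPM + 1) scale, which understates the fold of low genes. Genes with at least 1 TPM in at least 2 of 12 libraries were kept (13956), which includes all 145 members and 310 of the other 376 ZNF genes. Two-sided tests used limma 3.58.1 under R 4.3.3, fitting 6 group means to all libraries with a trended variance (6 residual and 4.63 prior degrees of freedom), and p-values were adjusted by Benjamini-Hochberg over every gene kept. The reference was GRCh38, another build than the files, and served for gene order, proteins, GC and promoters; Python 3.11.15 and matplotlib 3.10.9 were used for the rest.

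The members and lists were chosen with earlier results of these data known. The text names, per comparison within a line, up to 10 highest and 10 lowest changes past the threshold without overlap, the 10 highest mean levels, the 3 genes on each side of the threshold, the 8 extremes each way between lines, genes of known role, TRIM28 and up to 3 machinery genes per comparison. ATF7IP, CHD4, SETDB1, SMARCAD1 and the values of ZNF28, ZNF558, ZNF655 and ZNF358 in further comparisons were chosen after their values were seen. Alternatives were a pseudocount of 0.1, no filter, median-of-ratios scaling, quantile normalization, each line fitted alone, a replicate block, other thresholds on the mean (5 and 20 TPM), each library left out and, chosen after seeing the data, centring by GC in 20 bins and a wider KRAB pattern.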

Additional observations from a re-analysis of the deposited data

Results flagged for a closer look

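For 20 members the change under H2O2 differed between the lines by limma's test of the difference itself (adjusted p under 0.05 over 13956 genes). One side of each difference is the comparison by which the family was picked, so these values are a description. In log2 units, HCT116 minus MDA-MB-231, the difference was 0.65 for ZNF266, 0.63 for ZNF621, 0.62 for ZNF697 and 0.61 for ZNF655. It was 0.53 for ZNF160, 0.52 for ZNF224, 0.51 for ZNF274, 0.47 for ZNF337, 0.47 for ZNF121 and 0.43 for ZNF23. It was 0.38 for ZNF185, 0.37 for ZNF12, 0.33 for ZNF410, 0.33 for ZNF562 and 0.32 for ZNF22. On the other side stood ZNF358 with -0.51, ZNF576 with -0.46, ZNF629 with -0.39, ZNF180 with -0.35 and ZNF207 with -0.23. The count of 15 with a higher value was 7 to 9 without any 1 of the 4 H2O2 libraries with IgG or the second IgG library of MDA-MB-231. The count of 5 was 0 to 3 without any 1 of 9 of the 12 libraries.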

How the results depend on the processing

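Of 40 named results within a line, 24 kept their call under every alternative, 16 lost it under at least 1, and 0 reversed. The 16 are falls in HCT116 and both calls in MDA-MB-231. With 2 libraries per group and no read depth, changes under about the spread between libraries cannot be seen.

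With single libraries left out, members that rose with H2O2 in HCT116 numbered 28 to 45 and those that fell 3 to 12. With the KRAB motif 14 to 23 rose, and without it 14 to 22 rose and 3 to 12 fell. Of the other ZNF genes 27 to 62 rose, and of the machinery 8 to 17 fell. For the antibody with H2O2 against IgG in HCT116 the ranges were 41 to 55 higher and 3 to 13 lower, 18 to 28 higher with the motif, and 8 to 16 lower for the machinery. In MDA-MB-231 they were 0 to 1 higher for H2O2, a description, and 0 to 2 higher for the antibody with H2O2 against IgG. For the H2O2 change compared between the lines they were 7 to 15 higher and 0 to 5 lower. Where a group was left with 1 library, it was assumed to vary like the other groups. The share of all genes called in these fits is not given, so their counts have no baseline beside them.

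The count of members that fell with H2O2 in HCT116, all without the KRAB motif, was 8 with the line fitted alone, with no filter and with a pseudocount of 0.1. With quantile normalization, for the antibody with H2O2 against IgG in HCT116, 17 members and 10 machinery genes were lower. Centring by GC gave 2 members higher for H2O2 in MDA-MB-231 and 1 with the replicate block added; for the antibody with H2O2 against IgG there it gave 6, and 8 with the block, while the line fitted alone gave 0 and no filter gave 1. For the H2O2 change compared between the lines, 2 were lower with median-of-ratios scaling, 1 with no filter, 3 with a pseudocount of 0.1 and 3 with the replicate block. In each case the cause was not tested.

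The median change of the members with H2O2 in HCT116 was 0.062 at a mean of at least 20 TPM, 0.151 with median-of-ratios scaling, 0.125 with quantile normalization and 0.165 centred by GC. For the antibody with H2O2 against IgG it was 0.104, 0.141, 0.142 and 0.152 in the same order. For the antibody against IgG under H2O2 in HCT116 it was 0.020 with median-of-ratios scaling and 0.021 with quantile normalization. In MDA-MB-231 that median was -0.0078 and turned to 0.016 with median-of-ratios scaling, 0.020 with quantile normalization and 0.029 centred by GC. The median over all genes moved the same way, from -0.0246 to -0.0026 with median-of-ratios scaling and -0.0083 with quantile normalization. Between the lines under IgG the median of the members was 0.113 with median-of-ratios scaling.

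Deviations of libraries of 1 replicate number correlated at -0.13 to 0.16 over the 6 pairs of groups. The range was 0.01 to 0.16 in MDA-MB-231 and -0.13 to 0.06 in HCT116. Such values are low but do not settle whether the samples were paired by number. With the number as a replicate block, 46 members rose and 13 fell with H2O2 in HCT116, and for the antibody with H2O2 against IgG 53 were higher and 7 lower.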
